A study of Mus musculus with 20 samples.

Results

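The 8 genes described here belong to the JAK-STAT cytokine pathway and were chosen by name: Socs1, Socs2, Socs3, Cish, Pim1, Stat3, Bcl3 and Jak3. The choice was made with earlier results of these data known. All 8 were found among the 24421 genes of the files, and all 8 were among the 14030 genes that passed a filter on low counts and were tested. They were measured by poly(A) RNA-seq in neutrophils that had been purified from bone marrow of femurs and tibias by magnetic removal of other cells. The study asked how loss of the clock gene Bmal1 in myeloid cells bears on a lupus model driven by imiquimod (IMQ), a Toll-like receptor 7 agonist.

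There were 4 groups of 5 libraries, and all mice were female. WT mice were C57BL/6J and were purchased, whereas Bmal1 Mye-/- mice came from crossing a floxed line with a Cre line, with breeding pairs kept at the authors' institute. Effects of genotype and of the origin of the mice therefore cannot be told apart. Bmal1 Mye-/- mice carried floxed alleles of Bmal1 (Arntl in the files) together with LysM-Cre, in which Cre recombinase sits in the Lyz2 gene, so that deletion takes place in myeloid cells in general and not in neutrophils alone. Each genotype was left untreated or received 5% IMQ cream on the ears 3 times a week for 6 weeks, starting at 8 to 10 weeks of age, and all mice were killed in the morning. The age of the untreated mice is not given in the sources used here.

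In this pathway a cytokine receptor activates Janus kinases (JAKs), which phosphorylate STAT transcription factors, and these enter the nucleus and switch genes on. Some of the genes switched on, the SOCS genes and Cish, encode proteins that bind receptors or kinases and damp the signal, and others, such as Pim1 and Bcl3, encode effectors. In neutrophils the receptor for granulocyte colony-stimulating factor (G-CSF) signals mainly through Stat3, and Socs3 is its main feedback inhibitor.

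The libraries held between 30782166 and 92613500 reads on genes (median 66094896). Values are given as CPM, the reads of a gene scaled to a common number of reads on genes with TMM factors, and differences as log2 fold changes with their standard error (SE) from edgeR's quasi-likelihood test, with p adjusted over the 14030 genes by the Benjamini-Hochberg method. Summed levels of 10 neutrophil marker genes were 72400 to 162000 CPM, against 8.89 to 146 CPM for 9 B-lineage genes. Sums were 647 to 2400 CPM for 8 monocyte genes, 402 to 1550 CPM for 8 basophil and mast cell genes and 16.6 to 546 CPM for 9 erythroid genes. The neutrophil marker Ly6g is not among the genes of the files under that symbol. Arntl averaged 1.35 ± 0.322 CPM (SD, n = 5) in WT and 0.721 ± 0.24 CPM in Bmal1 Mye-/- without IMQ, and 1.11 ± 0.474 and 0.702 ± 0.477 CPM with IMQ, and neither difference passed the test (edgeR, adjusted p = 1 and 0.305). Lyz2, where Cre is inserted, fell in Bmal1 Mye-/- from 11400 ± 593 to 135 ± 29.8 CPM without IMQ (log2 fold change -6.40, edgeR adjusted p = 1.47e-09). On the first principal component WT IMQ replicate 5 and Bmal1 Mye-/- IMQ replicate 2 lay within the range of the untreated libraries, and results were also computed without both.

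The 8 genes covered a wide range of levels. Per kilobase of exon, the mean over the 20 libraries was 59.9 RPKM (CPM divided by the exon length in kilobases) for Pim1, 43.1 for Stat3, 39.3 for Socs3 and 26.4 for Bcl3. Jak3 stood at 9.67 RPKM, Socs1 at 2.67, Cish at 1.58 and Socs2 at 0.0591, where the median over 13510 tested genes with a known length was 2.48 RPKM. Thus Pim1, Stat3 and Socs3 were each above 92% or more of those genes (94.7%, 92.8% and 92%), and Socs2 was above 8.31% of them, with 3 to 137 reads per library.

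**Figure D1:**
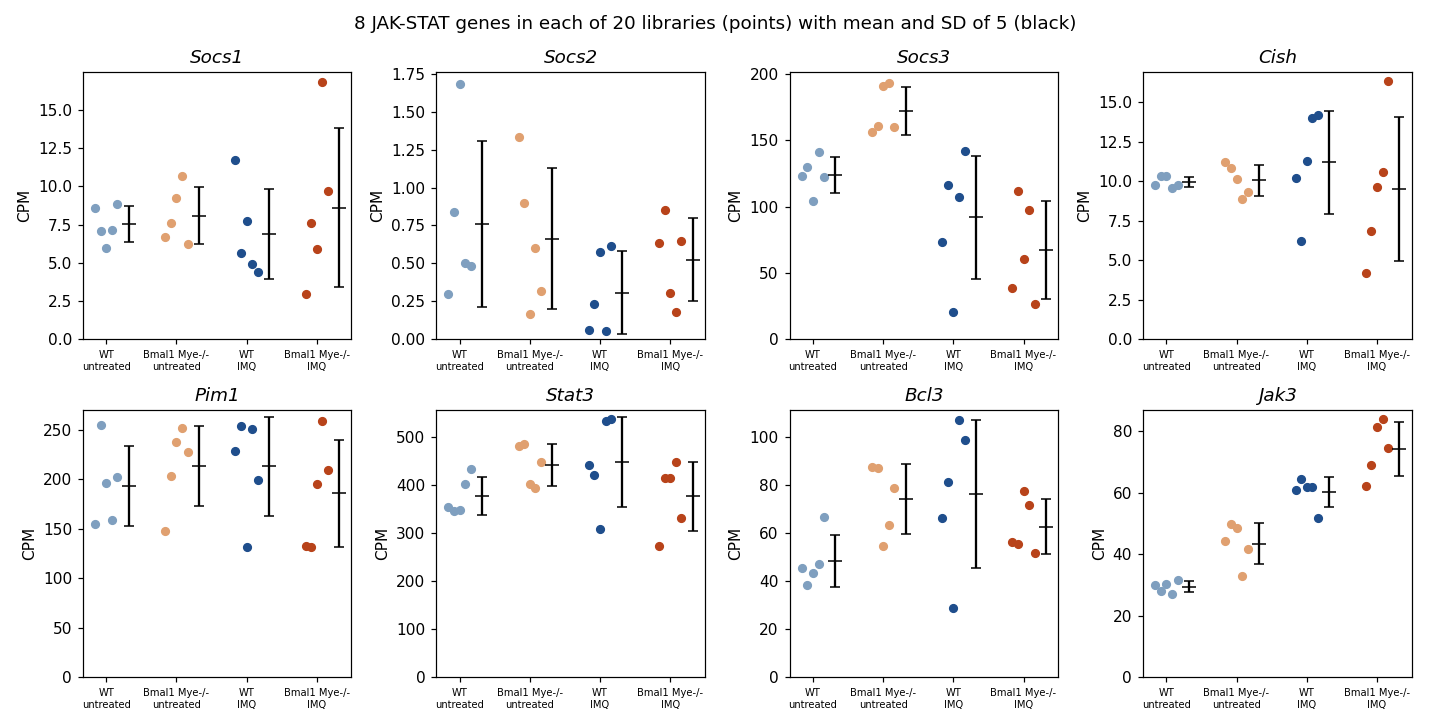
CPM (vertical axis, linear, from 0) of the 8 genes in each library, in 4 groups of 5 along the horizontal axis, with the mean and SD of each group in black. Jak3 rises from 27.2 to 31.5 CPM in untreated WT to 62.2 to 83.9 CPM in IMQ-treated Bmal1 Mye-/-, and Socs3 is spread from 20.9 to 142 CPM among the IMQ-treated WT libraries.

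Jak3 and Socs3 were the genes of the set that edgeR called for IMQ. Jak3 was called higher in both genotypes and Socs3 lower in Bmal1 Mye-/-. In Bmal1 Mye-/- Socs3 ranked 1548 by p, and the share of the 8 called there was near that of all genes. The test given below of whether IMQ acted differently in the genotypes passed for neither gene. Of the 8 genes, 1 passed the test for IMQ against untreated in WT, beside 3.95% of all genes tested, and 2 passed it in Bmal1 Mye-/-, beside 23.5%. The share of genes whose 5 treated and 5 untreated libraries did not overlap was 6.43% in WT, where Jak3 alone of the 8 did so, and 20.1% in Bmal1 Mye-/-, where Jak3 and Socs3 did. The median log2 fold change of the 8 genes was 0.15 in WT and -0.22 in Bmal1 Mye-/-, against 0.03 and 0.02 over all genes, and 5 and 2 of the 8 were above 0.

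Jak3 encodes the Janus kinase that pairs with the common gamma chain Il2rg, the shared subunit of the receptors for interleukins such as IL-2 and IL-7. It lies on chromosome 8 at 71676383 to 71690577 of mm10 on the plus strand. In untreated WT the 5 libraries held 30, 28.1, 30.4, 27.2 and 31.5 CPM of Jak3, a mean of 29.4 ± 1.74 (SD, n = 5). In WT with IMQ they held 60.7, 64.3, 61.9, 61.7 and 51.7 CPM of Jak3, a mean of 60 ± 4.87. All 5 treated WT libraries were above all 5 untreated ones.

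The log2 fold change of Jak3 in WT was 1.03 (SE 0.109, edgeR adjusted p = 0.000154), or 2.04-fold, and its p was the smallest of all genes tested. In untreated Bmal1 Mye-/- the libraries held 44.3, 49.8, 48.5, 32.9 and 41.8 CPM of Jak3 (mean 43.5 ± 6.71, SD, n = 5), and with IMQ 62.2, 69, 81.1, 83.9 and 74.3 CPM (mean 74.1 ± 8.85). Again no treated library reached down to an untreated one, and the log2 fold change was 0.77 (SE 0.108, edgeR adjusted p = 0.00224), or 1.7-fold. Without any one library it stayed between 1.00 and 1.07 in WT and between 0.68 and 0.84 in Bmal1 Mye-/-, with adjusted p of at most 0.00266 and 0.0108.

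Without IMQ, Jak3 was also higher in Bmal1 Mye-/- than in WT, by 0.56 on the log2 scale (SE 0.108, edgeR adjusted p = 0.0258), and the libraries of the 2 genotypes did not overlap. It was 1 of 29 genes called in that comparison, 0.207% of those tested, and the only one of the 8, and 26 of the 29 lie on chromosome 7, the chromosome of Arntl. The groups of Jak3 and of Socs3 did not overlap, as for 1.52% of all genes. The call of Jak3 was lost in 9 of the 10 fits that left out 1 library (adjusted p 0.0792 to 0.182), being kept only without Bmal1 Mye-/- untreated replicate 4 (0.00342), and also with the replicate number as a block (0.0854), with limma (0.0772), without the filter on low counts (0.0861) and with library size alone (0.0642). The difference itself moved little, from 0.50 to 0.65 when a library was left out.

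With IMQ the same difference was 0.30 (SE 0.108, edgeR adjusted p = 0.205, 95% interval 0.08 to 0.53), and the groups overlapped in Jak3. None of the 8 genes passed in that comparison by edgeR, DESeq2 or limma, beside 0.292% of all genes by edgeR, and none was free of overlap, beside 1.07% of all genes. Without WT IMQ replicate 3 the genes called in it numbered 3129 in place of 41, and of the 8 still 0, with Jak3 at 0.32 (edgeR adjusted p = 0.0539). At an unadjusted p under 0.05, Jak3 was the 1 gene of the 8, beside 2788 of all 14030 genes tested. The order of mean levels of Jak3 was thus Bmal1 Mye-/- with IMQ, WT with IMQ, untreated Bmal1 Mye-/- and untreated WT, of which the 2 IMQ-treated groups overlapped. Part of the exons of Jak3, 404 bases or 7.55%, lies within Insl3 on the same strand, and Insl3 averaged 0.148 to 0.475 CPM per group and also rose with IMQ in Bmal1 Mye-/- (log2 fold change 1.20, edgeR adjusted p = 0.0165).

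Socs3, the inhibitor that docks on G-CSF and IL-6 family receptors, lies on chromosome 11 at 117966079 to 117970336 of mm10 on the minus strand. A STAT binding motif is shown here because Socs3 is itself switched on by STATs. The window searched was the 250 bases before a RefSeq start (GRCm38.p6) that lies inside this locus, whose upstream end is 117970336. In it the letters TTCNNNGAA occurred once, 154 to 146 bases before that start and so within the locus itself. They occur in 7.02% of 32851 such windows of all genes. The motif reads alike on both strands, and it did not occur in the windows of Socs1, Cish, Pim1, Stat3, Bcl3 and Jak3. The motif is in capitals, and the run lies at chr11:117969491-117969541 on the minus strand:
Socs3: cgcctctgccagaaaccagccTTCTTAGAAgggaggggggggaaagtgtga

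In untreated Bmal1 Mye-/- the 5 libraries held 156, 161, 191, 193 and 160 CPM of Socs3 (mean 172 ± 18, SD, n = 5). With IMQ they held 38.8, 112, 60.8, 97.7 and 26.2 CPM of Socs3 (mean 67.1 ± 37), so that the highest treated library was below the lowest untreated one. Socs3 fell by 1.36 on the log2 scale (SE 0.385, edgeR adjusted p = 0.0197), to 0.39 of the untreated level. The call was lost without Bmal1 Mye-/- IMQ replicate 1 (log2 fold change -1.20, adjusted p = 0.0514), and over the 10 fits that left out 1 library the log2 fold change ran from -1.60 to -1.15. That replicate also had the lowest sum of neutrophil markers, 72400 CPM, and the highest sum of monocyte markers, 2400 CPM, and replicate 5, the lowest for Socs3, had 110000 CPM of neutrophil markers against 139000 to 151000 CPM in the other 3. The part of either in the level of Socs3 was not tested.

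In WT the same comparison of Socs3 gave -0.43 (SE 0.379, edgeR adjusted p = 0.542, 95% interval -1.23 to 0.37). Untreated WT libraries held 123, 130, 104, 141 and 122 CPM of Socs3 (mean 124 ± 13.7), and IMQ-treated ones 73.1, 116, 20.9, 107 and 142 CPM (mean 91.8 ± 46.7). The treated WT group thus reached both below and above the untreated one. The log2 fold change was -0.18 without WT IMQ replicate 3 and -0.65 without replicate 5, and passed in neither case. In that group the lowest library, replicate 3, had 103000 CPM of neutrophil markers, against 138000 to 162000 CPM in the other 4.

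Between genotypes, Socs3 differed by 0.48 without IMQ (SE 0.379, edgeR adjusted p = 1), although the 2 groups of 5 did not overlap. In a fit of these 2 groups alone, which does not take its spread from the IMQ-treated libraries, the adjusted p was 0.0384. With IMQ it differed by -0.45 (SE 0.379, edgeR adjusted p = 0.447). Means of Socs3 were highest in untreated Bmal1 Mye-/-, followed by untreated WT, WT with IMQ and Bmal1 Mye-/- with IMQ, and neighbours in this order overlapped except for the 2 untreated groups.

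**Figure D2:**
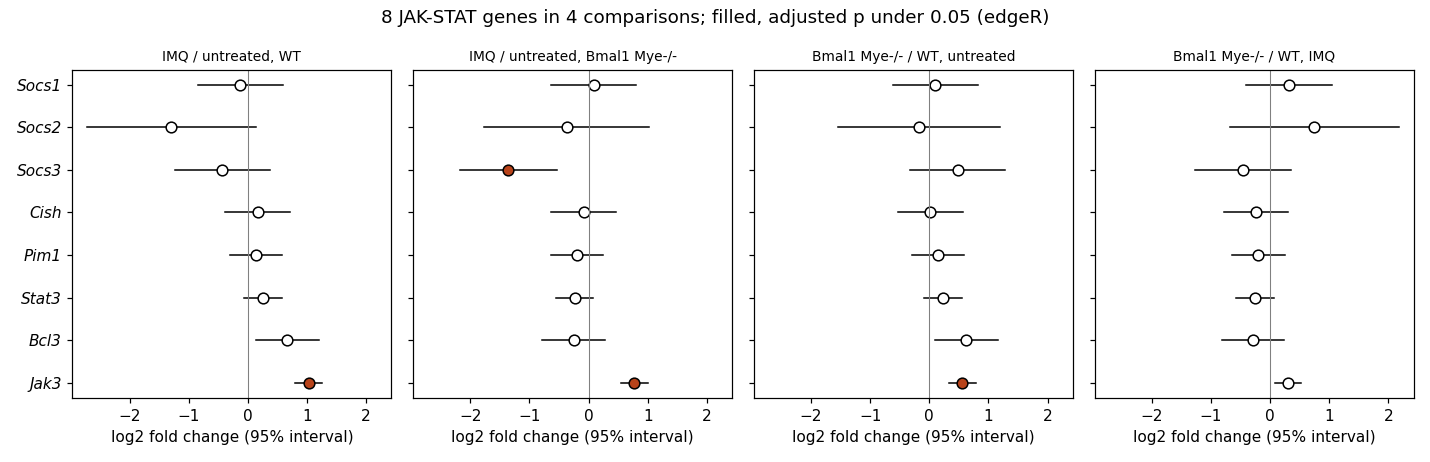
Log2 fold changes (horizontal axis) of the 8 genes with 95% intervals, in 4 panels for IMQ against untreated in each genotype and for the genotypes compared without and then with IMQ; filled points have an adjusted p under 0.05 (edgeR). Filled are Jak3 in 3 panels (1.03, 0.77 and 0.56) and Socs3 in 1 (-1.36).

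Stat3, the transcription factor downstream of the G-CSF receptor, and Bcl3, an atypical inhibitor of kappa B protein that binds NF-kappa B subunits in the nucleus, did not pass in any comparison. Stat3 (chromosome 11, 100886806 to 100939594, minus strand) averaged 376 ± 39.3 CPM in untreated WT, 442 ± 42.9 in untreated Bmal1 Mye-/-, 448 ± 94.2 in WT with IMQ and 376 ± 71.3 in Bmal1 Mye-/- with IMQ (SD, n = 5). The log2 fold change of Stat3 with IMQ was 0.25 (SE 0.149) in WT and -0.23 (SE 0.149) in Bmal1 Mye-/-, with edgeR adjusted p of 0.337 and 0.251. All neighbouring groups overlapped.

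Bcl3 (chromosome 7, 19808462 to 19822824, minus strand) held 45.6, 38.6, 43.3, 47.1 and 66.7 CPM in untreated WT (mean 48.3 ± 10.8). It held 87.4, 87.2, 54.7, 63.3 and 78.8 CPM in untreated Bmal1 Mye-/- (mean 74.3 ± 14.7). Of the latter libraries 3 were above all of the former, and the log2 difference was 0.62 (SE 0.251, unadjusted p = 0.0225, edgeR adjusted p = 1).

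With IMQ, Bcl3 held 66.4, 81.1, 29, 107 and 98.7 CPM in WT (mean 76.4 ± 30.8). It held 56.2, 55.3, 77.7, 71.9 and 51.9 CPM in Bmal1 Mye-/- (mean 62.6 ± 11.4). The log2 fold change of Bcl3 with IMQ was 0.66 in WT (SE 0.251, edgeR adjusted p = 0.124) and -0.25 in Bmal1 Mye-/- (SE 0.25, adjusted p = 0.478). Replicate 3 of IMQ-treated WT was the lowest of the 20 libraries for Bcl3, and without it the value in WT was 0.87 (adjusted p = 0.0369).

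Whether IMQ acted differently in the 2 genotypes was tested by the interaction of genotype and IMQ. None of the 14030 genes passed by edgeR (0%), and 721 genes, among them 2 of the 8, had an unadjusted p under 0.05. Bcl3 had an interaction of -0.91 (SE 0.355, unadjusted p = 0.0187, adjusted p = 0.64) and Stat3 of -0.48 (SE 0.211, unadjusted p = 0.0334, adjusted p = 0.64). For Socs3 it was -0.93 (SE 0.536, adjusted p = 0.64, 95% interval -2.06 to 0.21) and for Jak3 -0.26 (SE 0.152, adjusted p = 0.64, 95% interval -0.58 to 0.06). A larger fall of Socs3 in Bmal1 Mye-/- than in WT is therefore not shown. DESeq2 and limma also called none of the 8.

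Pim1, a serine/threonine kinase that promotes survival, did not pass in any comparison. It lies on chromosome 17 at 29490785 to 29496111 on the plus strand, and the E-box letters CACGTG, which Bmal1 binds with its partner Clock, occurred in the 250 bases before the second of its 2 RefSeq starts. They occurred in no other window of the 7 genes with an entry and occur in 6.02% of all windows, on both strands at once since they read alike. The E-box is in capitals, 58 to 53 bases before that start, and the run lies at chr17:29493006-29493053 on the plus strand:
Pim1: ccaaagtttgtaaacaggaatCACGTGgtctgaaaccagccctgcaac

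Mean levels of Pim1 were 193 ± 40.5 CPM in untreated WT, 213 ± 40.8 in untreated Bmal1 Mye-/-, 213 ± 50.4 in WT with IMQ and 186 ± 54.1 in Bmal1 Mye-/- with IMQ (SD, n = 5). Its 4 log2 differences lay between -0.20 and 0.14, each with SE 0.21, and the adjusted p were 0.493 to 1 (edgeR). The 95% interval for Bmal1 Mye-/- against WT was -0.30 to 0.59 without IMQ and -0.64 to 0.25 with IMQ. An antisense gene, Gm26885, shares 14.5% of the exon bases of Pim1, and without a stated strand setting its reads cannot be told apart. The same limit holds for Cish, which shares 7.46% of its exon bases with Gm17041 and 4.07% with Gm17040. It also holds for Bcl3 (6.51%, Gm16175) and Stat3 (0.756%, Stat5a).

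Socs1 (chromosome 16, 10783808 to 10785536, minus strand), which inhibits JAK kinases downstream of interferon receptors, averaged 7.52 ± 1.19 CPM in untreated WT, 8.09 ± 1.88 in untreated Bmal1 Mye-/-, 6.89 ± 2.97 in WT with IMQ and 8.6 ± 5.22 in Bmal1 Mye-/- with IMQ (SD, n = 5). Its highest value was 16.8 CPM in Bmal1 Mye-/- IMQ replicate 4 and its lowest 2.97 CPM in replicate 1 of the same group. No comparison of Socs1 passed (edgeR adjusted p 0.546 to 1), and its log2 differences were -0.13 to 0.32.

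Cish (chromosome 9, 107296659 to 107302784, plus strand), a STAT5 target that damps cytokine signals, had the most even levels in untreated WT, 9.56 to 10.3 CPM (mean 9.93 ± 0.321, SD, n = 5). Its spread was wider with IMQ, 6.19 to 14.2 CPM in WT (mean 11.2 ± 3.29) and 4.2 to 16.3 CPM in Bmal1 Mye-/- (mean 9.5 ± 4.54), while untreated Bmal1 Mye-/- had 10 ± 1 CPM. The log2 fold change of Cish with IMQ was 0.17 (SE 0.259) in WT and -0.08 (SE 0.259) in Bmal1 Mye-/-, with edgeR adjusted p of 0.747 and 0.836. The difference in spread was not tested.

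Socs2 (chromosome 10, 95383903 to 95417321, minus strand), which limits growth hormone signaling, had the fewest reads of the 8 genes. Its means were 0.759 ± 0.548 CPM in untreated WT, 0.664 ± 0.466 in untreated Bmal1 Mye-/-, 0.308 ± 0.272 in WT with IMQ and 0.523 ± 0.274 in Bmal1 Mye-/- with IMQ (SD, n = 5). The log2 fold change of Socs2 in WT, -1.30 (SE 0.672, edgeR adjusted p = 0.268, 95% interval -2.72 to 0.13), did not pass, and no difference of Socs2 was detected in any comparison. The SD of Socs2 was 52.4% to 88.5% of the mean within the groups.

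Across the 20 libraries, the genes whose log2 CPM most resembled that of a member were found by Pearson's r. The libraries of a group share their treatment and genotype, so r is also given for deviations from the group means. For Socs3 they were Sirpb1b (0.962, deviations 0.951) and Csf3r, the G-CSF receptor (0.96, deviations 0.947). For Jak3 they were Sema6b (0.946, deviations 0.655) and Tspo (0.918, deviations 0.695), where a large part of the likeness lay between the groups. For Stat3 they were Csf2rb (0.941), the shared chain of the receptors for IL-3, IL-5 and GM-CSF, and Ddx6 (0.938), and for Bcl3 they were Stat3 (0.821, deviations 0.831) and Sbno2 (0.811).

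For the remaining members r ran from 0.742 to 0.878. Socs2 was most like Syt3 (0.878) and Arhgap35 (0.871), which for a gene of so few reads is a weak statement, and Socs1 was most like Chmp4b (0.855) and Whamm (0.814). Pim1 was most like Cdk9 (0.774) and Mafk (0.765), and Cish most like Fer (0.749) and March2 (0.742). Among the members themselves, Socs3 and Stat3 had r = 0.61 (deviations 0.75) and Socs3 and Bcl3 r = 0.43 (deviations 0.67), while Jak3 and Socs3 had r = -0.52 but -0.06 for deviations.

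**Figure D3:**
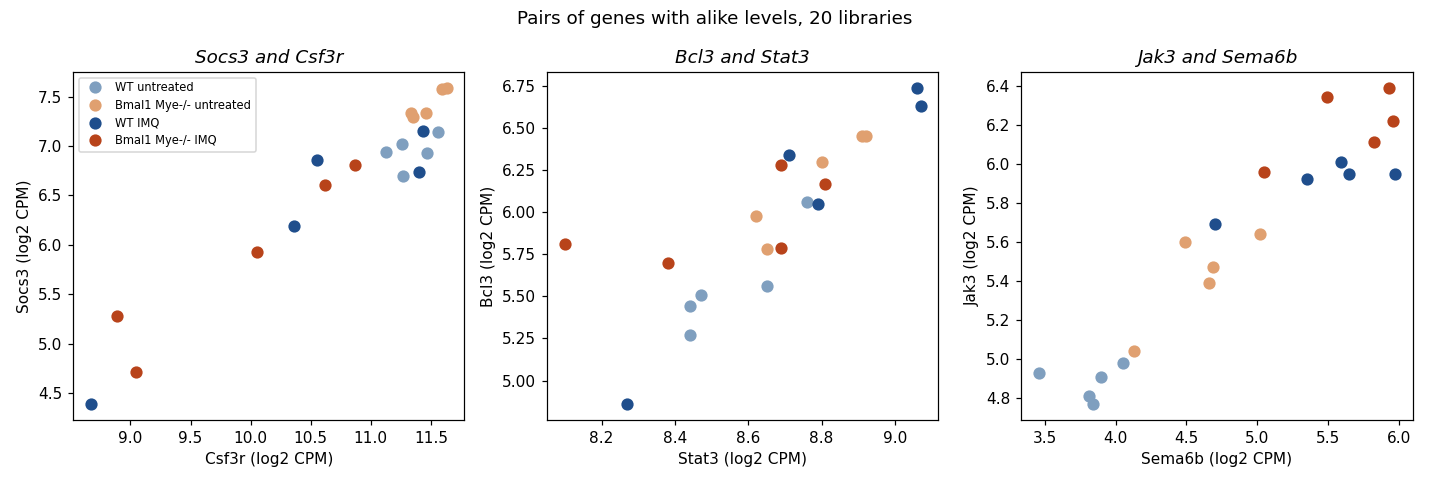
Log2 CPM of Socs3 against Csf3r, of Bcl3 against Stat3 and of Jak3 against Sema6b in 20 libraries (points), coloured by group. Socs3 and Csf3r have r = 0.96 over the 20 libraries, and the libraries with the least of both are IMQ-treated. The untreated libraries span a narrow range of Csf3r, and Socs3 there is 7.29 to 7.59 in Bmal1 Mye-/- and 6.7 to 7.14 in WT.

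The rest of the pathway was described by lists of other genes. Of 22 receptor chains, 1 rose in WT with IMQ, Csf2rb2, a chain of the IL-3 receptor (log2 fold change 0.96, SE 0.153, edgeR adjusted p = 0.0069). In Bmal1 Mye-/- 4 of the 22 rose and 3 fell, where 14.4% of all genes tested rose and 9.04% fell. Those that rose were Il3ra (1.20), Il2rg (0.85), Il6st (1.49) and Csf2rb2 (0.44), and those that fell Ifnar1 (-0.65), Csf3r (-1.38) and Il10rb (-0.49). Il6st varied widely, with 17.7 ± 19.1 CPM in treated Bmal1 Mye-/- against 6.3 ± 2.99 in untreated. The median of the 22 was 0.11 in WT and -0.06 in Bmal1 Mye-/-.

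Receptor partners of the 2 called members were among them. Il6st, a chain of the IL-6 family receptors on which Socs3 also docks, rose in Bmal1 Mye-/- with IMQ while Socs3 fell. Il2rg, to which the Jak3 protein binds, averaged 22.5 ± 4.27 CPM in untreated and 34.6 ± 11.9 CPM in IMQ-treated WT (log2 fold change 0.62, SE 0.208, edgeR adjusted p = 0.0889), and 19.1 ± 3.32 and 34.5 ± 7.63 CPM in Bmal1 Mye-/- (0.85, SE 0.209, adjusted p = 0.0111). Csf3r, whose signal Socs3 limits, averaged 2600 ± 315 and 1740 ± 995 CPM in WT (-0.58, SE 0.395, adjusted p = 0.409), and 2850 ± 269 and 1100 ± 617 CPM in Bmal1 Mye-/- (-1.38, SE 0.401, adjusted p = 0.0223).

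Of 9 other Janus kinases and STATs, none passed in WT by edgeR (0 at an unadjusted p under 0.05, beside 3129 of all 14030 genes). In Bmal1 Mye-/- 3 of the 9 fell with IMQ, where 9.04% of all genes fell, Stat6 (-0.44), Stat4 (-0.77) and Jak1 (-0.60). Of the 4 Janus kinases, Jak3 was thus the 1 that edgeR called higher with IMQ, in both genotypes. Of 14 other negative regulators, none passed in WT (3 at an unadjusted p under 0.05), where Ptpn11 came closest (0.28, adjusted p = 0.0519), and in Bmal1 Mye-/- Ptpn11 (0.28), Socs4 (0.40) and Pias2 (0.57) rose and Pias1 (-0.29) fell, 4 of 14 beside 23.5% of all genes. Of 15 other genes known as STAT targets, Bcl2l1 rose (0.53) and Pim3 fell (-1.10) in WT. In Bmal1 Mye-/- 4 of the 15 passed, beside 23.5% of all genes in either direction, and all 4 fell, namely the interleukin-1 antagonist Il1rn (-1.88), the cyclin Ccnd2 (-1.05), Pim3 (-0.76) and the AP-1 subunit Junb (-1.07).

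Of 17 cytokine ligands for these receptors only 4 passed the filter on low counts, and 1 of them, Csf1, fell in Bmal1 Mye-/- with IMQ (-1.31, edgeR adjusted p = 0.0261). None of the 64 tested genes of these 5 lists passed between the genotypes by edgeR. At an unadjusted p under 0.05 were 2 of the 64 without IMQ, beside 307 of all 14030 genes, and 11 with IMQ, beside 2788.

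**Figure D4:**
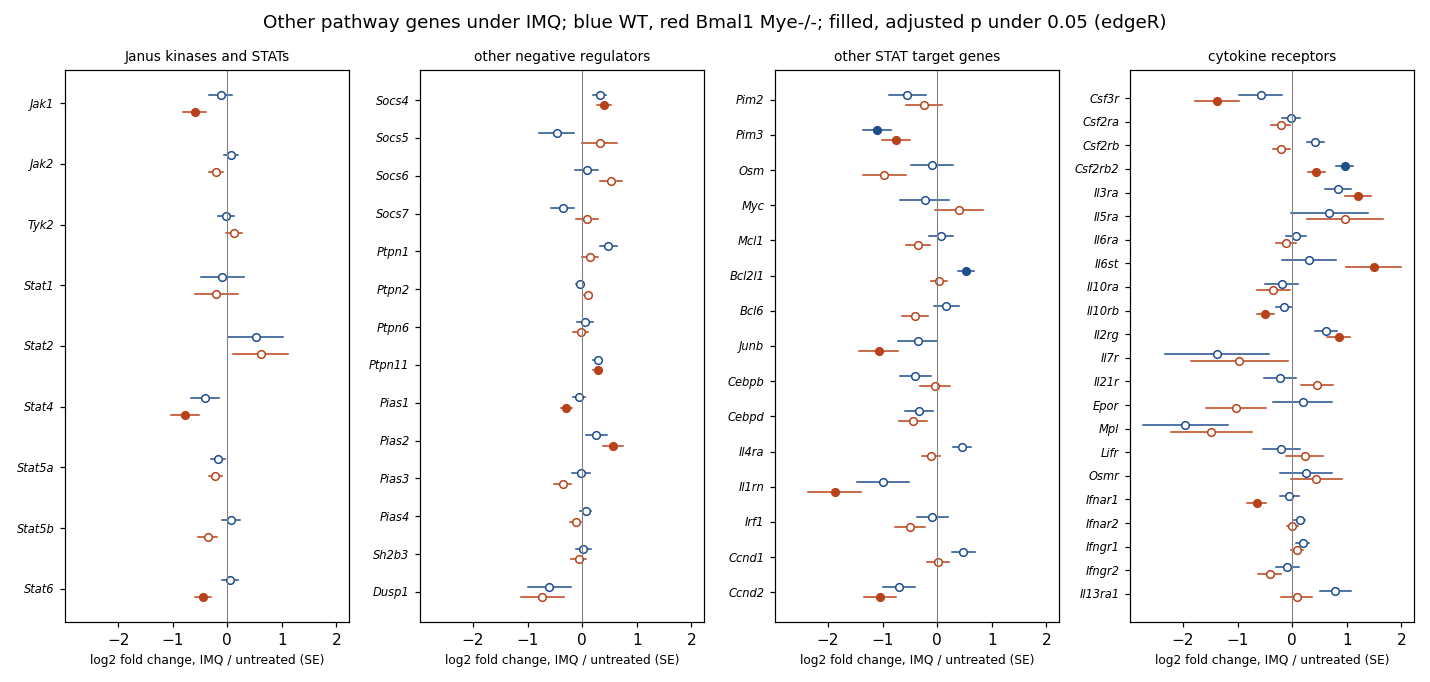
Log2 fold changes with IMQ (horizontal axis, bars SE) of other pathway genes in 4 lists, in WT (blue) and Bmal1 Mye-/- (red); filled points have an adjusted p under 0.05 (edgeR). Il1rn falls by 1.88 in Bmal1 Mye-/-, and Csf2rb2 is filled in both genotypes (0.96 and 0.44).

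Markers of other cells also moved with IMQ. In Bmal1 Mye-/- 4 of 8 monocyte markers rose, led by Ccr2 (log2 fold change 2.30, edgeR adjusted p = 0.0117), where 14.4% of all genes tested rose. The sum of the 8 ran from 647 to 2400 CPM with IMQ and from 770 to 984 CPM without. In WT none of the 8 passed by edgeR (2 at an unadjusted p under 0.05), and the sums were 970 to 1530 and 806 to 921 CPM. In Bmal1 Mye-/- the sums of the B-lineage markers were 13.3 to 49.5 CPM with IMQ and 36.2 to 122 CPM without. Of 5 tested T and NK cell markers 2 fell there, led by Cd3d (-1.49, edgeR adjusted p = 0.0144), beside 9.04% of all genes, with sums of 8.7 to 21.1 and 16 to 22.9 CPM.

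Neutrophil precursor genes did not pass for IMQ in either genotype (0 of 9, edgeR, smallest adjusted p 0.29 in WT and 0.0752 in Bmal1 Mye-/-, with 0 and 3 genes at an unadjusted p under 0.05). Between the IMQ-treated genotypes none of the 9 passed either (edgeR, smallest adjusted p 0.206). There 8 of the 9 were above 0, with a median of 1.11 against 0.03 over all genes. At an unadjusted p under 0.05 were 3 of the 9, beside 2788 of all 14030 genes. Sums of the 9 with IMQ were 563 to 1470 CPM in WT and 875 to 2430 CPM in Bmal1 Mye-/-, highest in replicates 3 and 1. Of 9 eosinophil genes 3 were higher in Bmal1 Mye-/- than in WT when both had received IMQ, where 0.185% of all genes were higher. They were Prg3 (3.59, edgeR adjusted p = 0.0182), Prg2 and Epx. Sums of the 9 genes were 43.8 to 213 and 21.7 to 42.8 CPM with IMQ, and 49.4 to 143 and 37.9 to 123 CPM without. With IMQ 2 of the 9 fell in WT, led by Prg3 (-2.59, edgeR adjusted p = 0.0335), where 1.6% of all genes fell. In Bmal1 Mye-/- 1 of the 9 fell with IMQ, Siglecf (-0.65, edgeR adjusted p = 0.0109), where 9.04% of all genes fell. Of basophil and mast cell genes 1 of 6, Ms4a2, rose in Bmal1 Mye-/- with IMQ (1.00), where 14.4% of all genes rose. Of erythroid genes 1 of 5, Alas2, rose in WT with IMQ (2.76), where 2.34% of all genes rose. The part of neutrophil precursors, lymphocytes, monocytes, eosinophils, basophils or erythroid cells in the levels of Jak3 and Socs3 was not tested. In bulk samples a change in the make-up of the cells cannot be told apart from a change of RNA per cell.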

How the data were processed

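Per the labels and the paper's methods, the authors made poly(A) libraries and mapped Read 1 to mm10. The paper names TopHat, the submitters' processing notes name STAR 2.7.8a and HTSeq 2.0.1, and which made the deposited files is not settled here. The deposited counts are whole numbers of reads per gene, not normalized, for 24421 genes and 5 summary lines. Annotation, strand setting and the sequencer of each library are not given in the sources used here. Reads on genes were 37.4% to 41.9% of the total, and 51.9% to 57.8% lay on no feature.

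Tests were run with edgeR 4.0.16 in R 4.3.3 (TMM factors 0.854 to 1.38, 1 quasi-likelihood fit of 4 groups, filterByExpr, 14030 genes, threshold 0.05). No 2 libraries of a group were duplicates. The labels number the libraries as replicates, and p-values measure the spread between them. CPM scaled by TMM divided by exon length in GENCODE M21 gave RPKM. Lists and members were chosen with earlier results of these data known. Named were all 8 members, up to 4 called genes of each list by smallest adjusted p (3 more of the receptor list, Il10rb, Il6st and Csf2rb2, were named after their values were seen) and the 2 genes most alike each member. Same-numbered libraries correlated in IMQ-treated and untreated Bmal1 Mye-/- (residuals, 0.128 to 0.426, all 5 above 0.1), which met the rule for pairing. Of the 5 untreated libraries there, 3 were most like the treated one of their own number. In WT the correlations were 0.0728 to 0.384 (4 of 5 above 0.1), and between genotypes -0.441 to 0.206 without and -0.497 to 0.343 with IMQ, which did not meet it. The labels state no pairing of mice, and the main fit had none, with the replicate block as an alternative. The fit was tested on simulated data. Single B-lineage genes are not reported here. Promoter windows and starts are those of RefSeq, GRCm38.p6, and Socs2 had no entry.

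Alternatives were RLE factors, library size alone, DESeq2 1.42.0, limma 3.58.1 on log2(CPM + 0.1), no filter, 10 counts in every library, only the 2 groups compared, the replicate block and each library left out. Leaving out both IMQ-treated libraries within the untreated range of the first component was chosen after seeing the data.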

Additional observations from a re-analysis of the deposited data

Results flagged for a closer look

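The level of Jak3 in WT IMQ replicate 5, 51.7 CPM, stood apart from the other 4 libraries of its group, of which the nearest held 60.7 CPM. The gap was 0.712 of the whole range of the group, against a critical value of 0.71 for 5 samples. This was 1 of 32 groups tested (8 genes in 4 groups), and chance flags about 1 in 20. The same library lay within the range of the untreated libraries on the first principal component. Without it the log2 fold change of Jak3 in WT was 1.07.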

How the results depend on the processing

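Of 339 values of the members under the alternatives other than those that left out 1 library, 330 kept their direction and their side of the threshold. These alternatives included the fit of only the 2 groups compared. For Bmal1 Mye-/- against WT without IMQ the number of members called was 1, but 0 with library size alone, limma, no filter or the replicate block, and 2 in a fit of only the 2 groups; over the fits without 1 library it ran from 0 to 1. It ran from 1 to 2 for IMQ in WT (2 without WT IMQ replicate 3) and from 1 to 2 in Bmal1 Mye-/- (1 without Bmal1 Mye-/- IMQ replicate 1). The replicate block changed no other call of a member.

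Signs turned for values near 0: Cish with IMQ in Bmal1 Mye-/- was 0.01 with library size alone and 0.04 without both libraries of the first component, Bcl3 between the genotypes with IMQ was 0.02 in limma, and Socs2 between the untreated genotypes was 0.00 with the replicate block. Without 1 library, Cish ran from -0.03 to 0.06, Socs2 from -0.59 to 0.33 and Socs1 from -0.02 to 0.17 between the untreated genotypes; Socs2 from -0.58 to 0.04, Cish from -0.36 to 0.12 and Socs1 from -0.28 to 0.32 with IMQ in Bmal1 Mye-/-; and Socs1 from -0.06 to 0.61 between the IMQ-treated genotypes and from -0.15 to 0.52 in the interaction. The cause was not tested.

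Genes called for IMQ in WT were 554, but 1480 with DESeq2, 326 without the filter, 190 with the replicate block, 186 in the fit of 2 groups, 2129 without both libraries and 48 to 1989 without 1 library (48 without WT untreated replicate 2, 1989 without WT IMQ replicate 5). For IMQ-treated genotypes they were 41, but 313, 16 and 22 with DESeq2, 2 groups and without both libraries, and 20 to 3129 without 1 library (3129 without WT IMQ replicate 3, 280 without Bmal1 Mye-/- IMQ replicate 4). For IMQ in Bmal1 Mye-/- they were 3292, and 1612 to 4037 without 1 library (1612 without Bmal1 Mye-/- untreated replicate 4). For untreated genotypes they were 29, but 59 in the fit of 2 groups. Socs2 had 3 to 137 reads per library.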
